A study of Glycine max with 5 samples.

Results

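Plasma membrane intrinsic proteins (PIPs) are the aquaporins of the plant cell surface, and their transcripts were compared between mature soybean pollen and the sporophytic tissues of young seedlings. A probe set of the Affymetrix soybean array was taken as a member when its single gene symbol in the array annotation was PIP followed by a digit. This gave 25 of the 37593 soybean probe sets, standing for 14 genes, with 9 probe sets for 6 genes of the PIP1 group and 16 probe sets for 8 genes of the PIP2 group. A symbol was given for only 8677 probe sets, so members of the family without a symbol are not among them. Where several probe sets stand for a gene, they carry letters in the order of their differences, as in PIP2-8a and PIP2-8b, and the plots pair each letter with the probe set ID.

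PIPs form pores that let water cross the membrane along an osmotic gradient, and each pore is a unit of a tetramer. The family has a PIP1 and a PIP2 branch. PIP2 proteins are efficient water channels when expressed alone in frog oocytes. Many PIP1 proteins, as known from maize and Arabidopsis, reach the plasma membrane only when they assemble with a PIP2 partner. In seedlings PIPs carry water through root cortex, vascular tissue and leaf cells. A pollen grain is dehydrated before it is shed, takes up water on the stigma and then drives tube growth by turgor, and in Arabidopsis the aquaporins named for pollen belong largely to other branches of the family.

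Pollen was represented by 3 arrays and sporophytic tissues by 2 arrays. Both came from soybean cultivar Bragg with no transgene, mutant or treatment. Pollen was rubbed from isolated anthers of glasshouse plants that were brought to flower by shortening the day, and the grains were inspected under the microscope for purity and viability. Sporophytic RNA came from seedlings. Stems, roots and leaves are named in the methods of the study, and again in a passage and a figure caption of its results. Another results passage names only an equal mix of leaves and stems, so the share of root RNA is not settled. The deposited values are log2 signals after Robust Multiarray Averaging (RMA), a method that corrects background, normalizes between arrays and summarises the probes of each probe set. The methods set a minimum signal of 100, which is 6.64 on this scale. Every difference below is pollen minus sporophytic tissues on the log2 scale, with a standard error (SE) from limma's moderated linear model, and calls were made at an adjusted p under 0.05, with Benjamini-Hochberg adjustment across the 37593 soybean probe sets. With so few arrays the precision is limited. The model pools the spread of both groups, although over all probe sets the median SD was 0.0804 in pollen and 0.273 in sporophytic tissues. Where dim pollen replicates were nearly identical, the SE and its p can therefore understate the spread of the sporophytic arrays.

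Signals of marker genes were set beside the labels. Both lists were drawn with these data known, so they are no independent check. Of 17 probe sets for green-tissue genes, among them Rubisco activases and the light-harvesting protein CAB3, 13 were lower and 1 was higher in pollen, and their summed linear signal was 1776 to 2031 on the pollen arrays and 164642 and 84284 on sporophytic replicates 1 and 2. These genes were chosen after the data were seen. For 5 probe sets of pectin enzymes and RALF peptides, which the study listed from these same arrays, the sum was 188966 to 192596 in pollen and 28 and 29 in sporophytic tissues. Median log2 signals over all probe sets were 4.11 to 4.24 in pollen and 5.25 and 5.43 in sporophytic tissues, so the deposited soybean values were not at 1 level, and other scalings are given where they change a call. In bulk RNA, fewer cells of a type and less RNA per cell cannot be told apart.

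Transcripts of most of the 14 measured PIP genes were lower in pollen. Of the 25 probe sets, 17 (68.0%) were lower, 0 were higher and 8 did not pass limma's test, while 34.5% of all probe sets were lower and 18.9% were higher. At an unadjusted p under 0.05, 0 PIP probe sets were higher, against 8298 of all 37593 probe sets. Another scaling gave some higher calls among members below a signal of 100, with 15 lower and 2 higher after quantile normalization of the soybean probe sets, and 15 lower and 6 higher when their medians were made equal. The median log2 difference was -4.81, against -0.22 over all probe sets, and the members ranged from -9.89 to 0.33. Every pollen array lay below both sporophytic arrays for 20 of the 25, which held for 41.7% of all probe sets, and the reverse order was seen for 0, against 36.4% of all. Among the 14 genes, 12 had at least 1 probe set that was lower, and only PIP1-8 and PIP2-10 had none. Fewer, 9 of the 14, were lower on every probe set. A gene with more probe sets is more easily counted among the 12, and no such share was computed over all genes.

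**Figure D1:**
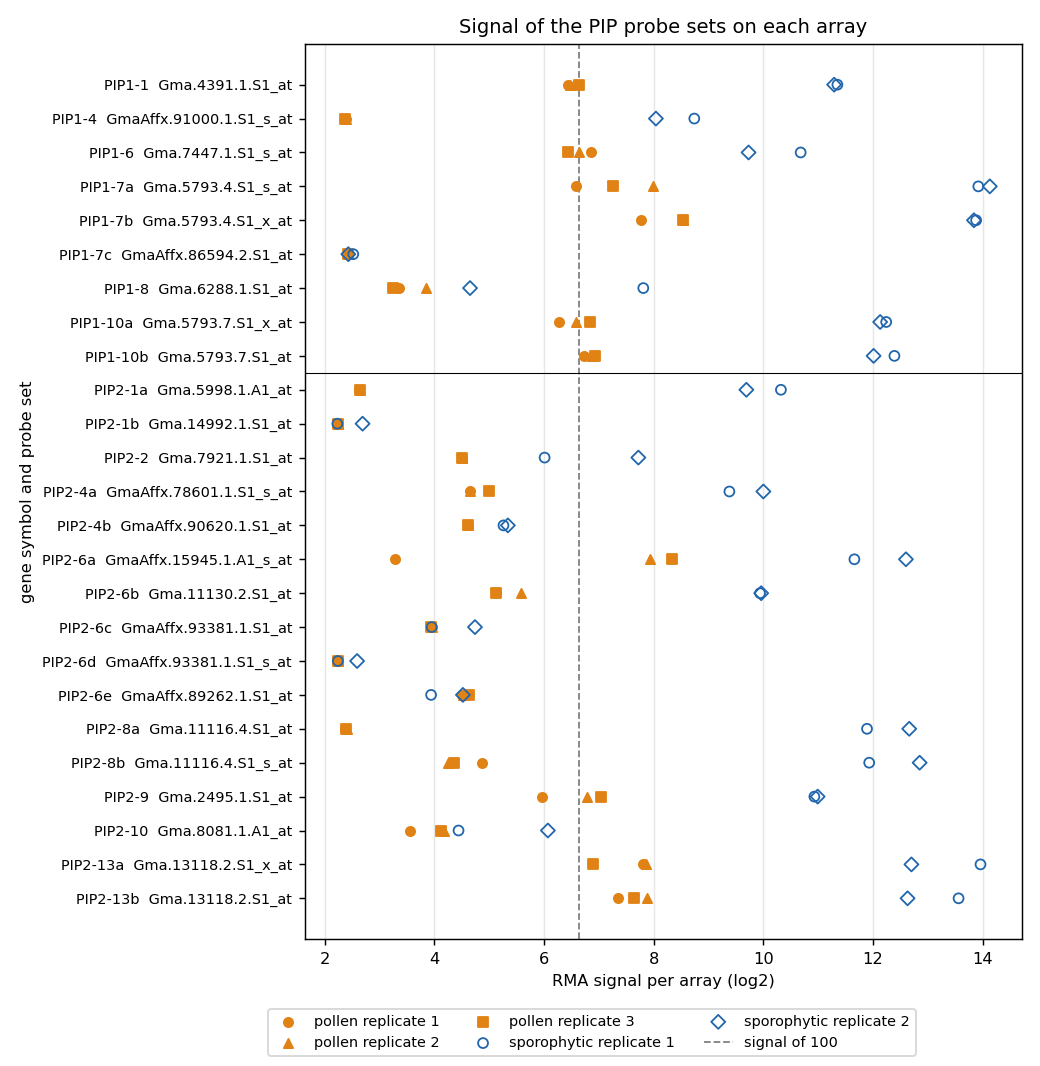
Log2 RMA signal of each PIP probe set (rows, by gene symbol, letter and probe set ID) on the 3 pollen arrays (filled orange) and the 2 sporophytic arrays (open blue). The dashed line marks a signal of 100. Pollen signals lie to the left of both sporophytic signals for 20 of 25 probe sets, and 7 probe sets stay left of the line on every array.

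Pollen signals were mostly dim. On both sporophytic arrays 16 of the 25 probe sets reached a signal of 100, compared with 29.8% of all probe sets. On every pollen array 4 did, compared with 17.4% of all. These 4 were PIP1-10b, PIP1-7b and both probe sets of PIP2-13. A further 5 reached it on 1 or 2 pollen arrays. For 7 probe sets a signal of 100 was found on both sporophytic arrays and on no pollen array, against 16.3% of all, and for 7 it was found on no array, which held for 54.8% of all probe sets. Where pollen lay below 100, the size of a difference rests on the bottom end of the RMA scale, so a bounded fold is given as well, for which every signal under 100 was set to 100. With this bound 15 probe sets were lower by at least 2-fold with an adjusted p under 0.05, against 16.3% of all probe sets.

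**Figure D2:**
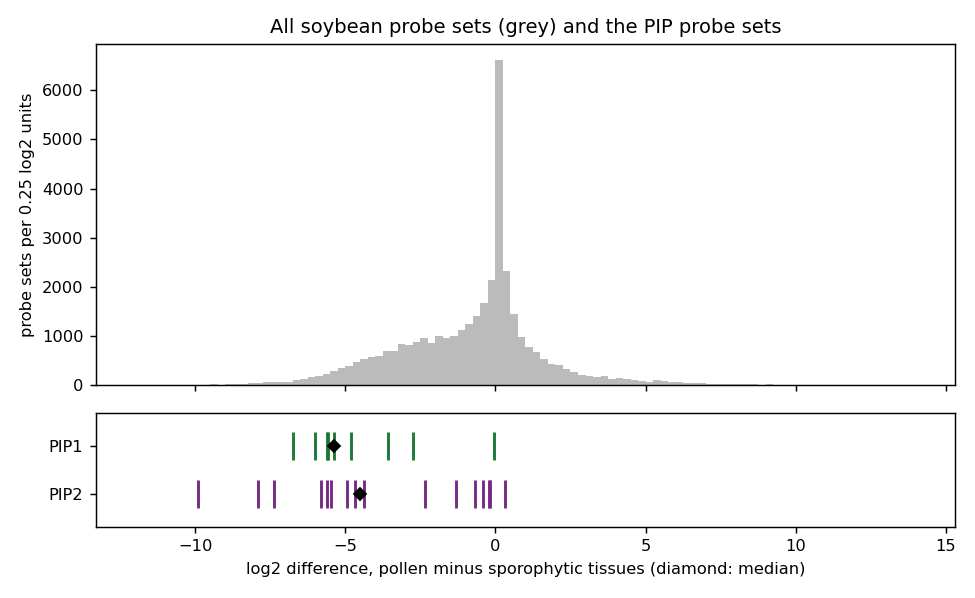
The upper panel counts all 37593 soybean probe sets by log2 difference, pollen minus sporophytic tissues. The lower panel marks each PIP1 and PIP2 probe set, with the medians of -5.36 and -4.52 as diamonds, to the left of the overall median of -0.22.

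PIP1 genes were lower in pollen for 7 of 9 probe sets, with a median log2 difference of -5.36 and a range from -6.75 to -0.04. PIP1-7 had the strongest difference. Its probe set PIP1-7a had pollen log2 signals of 6.58, 7.98 and 7.26 and sporophytic log2 signals of 13.92 and 14.13. The groups were far apart, although pollen replicate 1 was the lowest of its group by more than the sporophytic arrays differed from each other. The log2 difference was -6.75 (SE 0.47, adjusted p = 9.6e-04 from limma), at least 106-fold lower in pollen, but it did not pass when arrays were weighted by their quality in limma (-6.62, adjusted p = 0.109). The probe set PIP1-7b of the same gene had 7.76, 8.54 and 8.54 in pollen and 13.88 and 13.84 in sporophytic tissues, a difference of -5.58 (SE 0.30). Its pollen signals stayed above 100 on all 3 arrays.

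PIP1-10 went the same way with both of its probe sets. PIP1-10b had 6.73, 6.88 and 6.92 in pollen and 12.39 and 12.01 in sporophytic tissues, and the difference was -5.36 (SE 0.15, adjusted p = 1.2e-04 from limma), or 41.1-fold. PIP1-10a had a difference of -5.62 (SE 0.19). The suffixes s and x mark probe sets whose probes match several transcripts, and PIP1-7a, PIP1-7b and both probe sets of PIP1-10 carry the same cluster number in their names. Signals of these closely related genes can therefore be shared, and the 4 probe sets are not 4 independent measurements.

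PIP1-1, PIP1-4 and PIP1-6 were each represented by 1 probe set, and all were lower. PIP1-1 was among the members with the closest replicates, with 6.43, 6.48 and 6.63 in pollen and 11.35 and 11.29 in sporophytic tissues. Its difference of -4.81 (SE 0.08, adjusted p = 5.0e-05 from limma) had the smallest adjusted p of the family. PIP1-4 had 2.38, 2.38 and 2.37 in pollen and 8.74 and 8.04 in sporophytic tissues. The measured difference was -6.02 (SE 0.23), but the sporophytic signal was modest and the bounded fold was only 3.36. PIP1-6, which has been tied to salt tolerance when overexpressed in soybean, had the smallest fall of the called PIP1 probe sets, from 10.21 ± 0.67 (SD, n = 2) to 6.63 ± 0.21 (SD, n = 3), a difference of -3.57 (SE 0.34).

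PIP1-8 was the PIP1 gene without a call, and its sporophytic arrays did not match each other. Log2 signals were 3.36, 3.85 and 3.25 in pollen, 7.81 on sporophytic replicate 1 and 4.65 on replicate 2. All pollen values were below both sporophytic values, yet the difference of -2.74 (SE 1.06, adjusted p = 0.103 from limma) did not pass. Without sporophytic replicate 2 it was -4.32 with an adjusted p of 0.00544, and without replicate 1 it was not called. With 1 sporophytic array left, the spread in limma comes from pollen alone and the lone array is assumed to vary like it, so the gap of 3.16 between the sporophytic arrays does not enter this p.

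**Figure D3:**
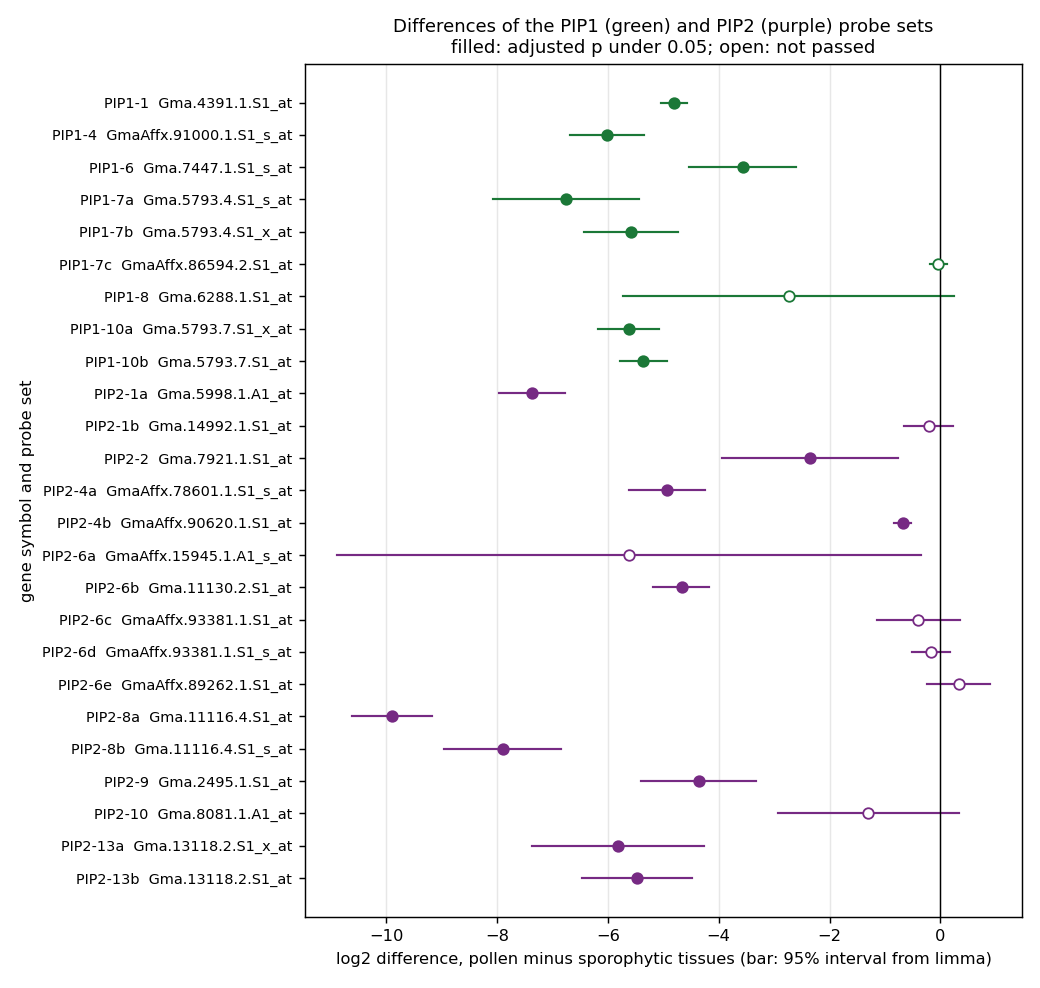
Log2 difference between pollen and sporophytic tissues for each PIP probe set (points) with the 95% interval from limma, which is not adjusted for the number of probe sets (bars). Filled points passed an adjusted p under 0.05 and open points did not. All 17 filled points lie below 0, and the widest bar belongs to a PIP2-6 probe set on which pollen replicate 1 stood apart.

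PIP2 genes were lower in pollen for 10 of 16 probe sets, with a median log2 difference of -4.52 and a range from -9.89 to 0.33. The leading gene was PIP2-8. On PIP2-8a the pollen signals were 2.37, 2.40 and 2.39 and the sporophytic signals were 11.89 and 12.66. The transcript was thus bright on both seedling arrays and close to the lowest values of the array in pollen. The difference of -9.89 (SE 0.26, adjusted p = 1.0e-04 from limma) ranked 19 among the falls of all 37593 probe sets, and the bounded fold was at least 49.6. The other probe set of the gene, PIP2-8b, had 4.87, 4.24 and 4.36 in pollen and 11.93 and 12.85 in sporophytic tissues, with a difference of -7.90 (SE 0.38) and a bounded fold of at least 53.7. Both probe sets, made from the same transcript sequence, thus placed PIP2-8 below a signal of 100 in pollen.

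PIP2-1 had the next largest difference. PIP2-1a had 2.62, 2.65 and 2.64 in pollen and 10.32 and 9.69 in sporophytic tissues, and fell by 7.37 (SE 0.21, adjusted p = 1.3e-04 from limma), at least 10.3-fold. PIP2-13 was bright in seedlings and kept some signal in pollen. Its probe set PIP2-13b had 7.35, 7.87 and 7.64 in pollen and 13.56 and 12.63 in sporophytic tissues, a difference of -5.48 (SE 0.35, adjusted p = 8.0e-04 from limma). PIP2-13a, made from the same transcript sequence, gave -5.81 (SE 0.55), which did not pass with array weights (adjusted p = 0.164 from limma). PIP2-13 was the only PIP2 gene with a signal of 100 on every pollen array.

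PIP2-9 had 5.97, 6.79 and 7.03 in pollen and 10.93 and 10.99 in sporophytic tissues. This gene, which has been linked to drought responses in soybean, reached a signal of 100 on 2 of 3 pollen arrays and had a difference of -4.36 (SE 0.37, adjusted p = 0.00164 from limma), which was -4.11 and did not pass with array weights (adjusted p = 0.163). PIP2-4 was lower on PIP2-4a, from 9.69 ± 0.43 (SD, n = 2) to 4.76 ± 0.20 (SD, n = 3), a difference of -4.93 (SE 0.25). PIP2-2 was near the threshold, with 4.51, 4.51 and 4.50 in pollen and 6.01 and 7.72 in sporophytic tissues. Its difference was -2.36 (SE 0.57, adjusted p = 0.0313 from limma), and it was not called when any 1 pollen array was left out (adjusted p from 0.0971 to 0.104), after quantile normalization (-0.95, adjusted p = 0.156) or with equal medians (-1.21, adjusted p = 0.066). Only sporophytic replicate 2 exceeded 100 for PIP2-2, and the bounded fold was 1.45.

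PIP2-10 did not pass. Its log2 signals were 3.56, 4.18 and 4.12 in pollen and 4.44 and 6.07 in sporophytic tissues, all below 100, with a difference of -1.30 (SE 0.58, adjusted p = 0.142 from limma). Without sporophytic replicate 1 the difference was -2.11, and limma called it with an adjusted p of 0.0241 that again rests on the spread of pollen alone. In the RefSeq gene table PIP2-10 has PIP2-11 as its neighbour and PIP2-9 has PIP2-12, in both cases with 0 coding genes between them. Neither neighbour had a probe set under its own symbol, and whether the probes of 1 gene take signal from the other was not tested.

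The probe sets of a single gene did not always tell the same story. Of the 7 genes with several probe sets, 4 were lower on each of them (PIP1-10, PIP2-4, PIP2-8 and PIP2-13) and 3 were mixed (PIP1-7, PIP2-1 and PIP2-6). For PIP1-10, PIP2-8 and PIP2-13 the probe sets were made from the same transcript sequence, so their agreement is not that of independent measurements. In the mixed genes, the probe sets that lay below 100 on every array differed little between the groups. PIP1-7c read 2.43 in each pollen sample and 2.52 and 2.43 in sporophytic tissues, in contrast to the difference of -6.75 on PIP1-7a. PIP2-1b read 2.25, 2.25 and 2.25 in pollen and 2.23 and 2.69 in sporophytic tissues. PIP2-4 belongs here in size, since PIP2-4b had a difference of only -0.68 (SE 0.05, adjusted p = 0.00123 from limma) with no array above 100. This call turned to higher after quantile normalization of the soybean values (0.55) or with equal medians (0.47).

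PIP2-6 had 5 probe sets, and 1 of them was called. PIP2-6b had 5.13, 5.58 and 5.12 in pollen and 9.94 and 9.96 in sporophytic tissues, a difference of -4.67 (SE 0.18, adjusted p = 2.3e-04 from limma). On PIP2-6a the pollen signals were 3.29, 7.93 and 8.33 and the sporophytic signals were 11.66 and 12.60. Pollen replicate 1 thus stood more than 4 log2 units below the other pollen arrays, both of which were above 100. The difference of -5.61 (SE 1.87) did not pass (adjusted p = 0.0729 from limma), and without pollen replicate 1 it was -4.00 and was called (adjusted p = 0.0119). The remaining 3 probe sets of PIP2-6 were below 100 on every array, with differences of -0.40, -0.18 and 0.33. The last of these, PIP2-6e, was the only PIP probe set with a positive difference in the deposited values. It was called higher after quantile normalization (1.28, adjusted p = 0.00238 from limma) and with equal medians (1.47, adjusted p = 8.9e-04 from limma). Its difference was 0.62 without sporophytic replicate 2 and 0.03 without replicate 1.

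Probe sets of the plain type, which are designed for 1 transcript, were lower for 9 of 15 members, with a median difference of -2.74. Probe sets shared between transcripts were lower for 5 of 7 members of type s, with a median of -5.61, and for 3 of 3 of type x, with a median of -5.62. Over all probe sets of every type 34.5% were lower. No share was computed for each type, so whether the types differ only among PIPs was not tested. All 7 members that were below 100 on every array were outside type x, and only 1 of them was of type s.

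PIP1 and PIP2 probe sets overlapped in their differences. The PIP1 median minus the PIP2 median was -0.84, and the middle range of the differences (between the outer quartiles) ran from -5.62 to -3.57 for PIP1 and from -5.66 to -0.61 for PIP2. Falls of at least 4 log2 units were found for 6 of 9 PIP1 and 9 of 16 PIP2 probe sets, counting the PIP2-6 probe set that did not pass, against 10.2% of all probe sets. The order of the medians depended on the choice of probe sets. With 1 probe set per gene, that with the highest mean over all arrays, the median was -5.08 for PIP1 and -5.27 for PIP2. That mean includes the sporophytic arrays, so this choice favours probe sets that are bright in seedlings and is not independent of the difference. The widest span was within PIP2, which held both the deepest fall, PIP2-8, and 6 of the 7 probe sets that were dim on every array. No test between the groups was made, since members share genes, probes and arrays.

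The seedling arrays differed from each other, with most PIP1 probe sets higher in replicate 1 and most PIP2 probe sets higher in replicate 2. Sporophytic replicate 1 was above replicate 2 for 8 of 9 PIP1 probe sets, with a median log2 difference of 0.12, and for 3 of 16 PIP2 probe sets, with a median of -0.52. Over all probe sets replicate 1 was higher for 34.8% and lower for 64.2%. Of the 13 PIP2 probe sets higher in replicate 2, 6 were below 100 on every array. Probe sets of the same gene or cluster can share signal, so these counts are not of independent members. A difference of at least 2-fold was seen for 2 members toward replicate 1, PIP1-8 and PIP2-13a, and for 2 toward replicate 2, PIP2-2 and PIP2-10, against 8.54% and 11.5% of all probe sets. PIP1 members hardly moved apart from PIP1-8, which was higher in replicate 1 by 3.16, PIP1-6 by 0.94 and PIP1-4 by 0.70. PIP2-2 and PIP2-10 were lower in replicate 1, with differences of -1.72 and -1.62. The 3 PIP2 probe sets that went the other way were both of PIP2-13 (0.93 and 1.26) and PIP2-1a (0.63). Green-tissue genes moved between these arrays too, as 7 of 17 were at least 2-fold higher in replicate 1 and 1 was at least 2-fold lower. With 1 array for each replicate these differences have no test, and the part of organ composition in them was not tested.

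**Figure D4:**
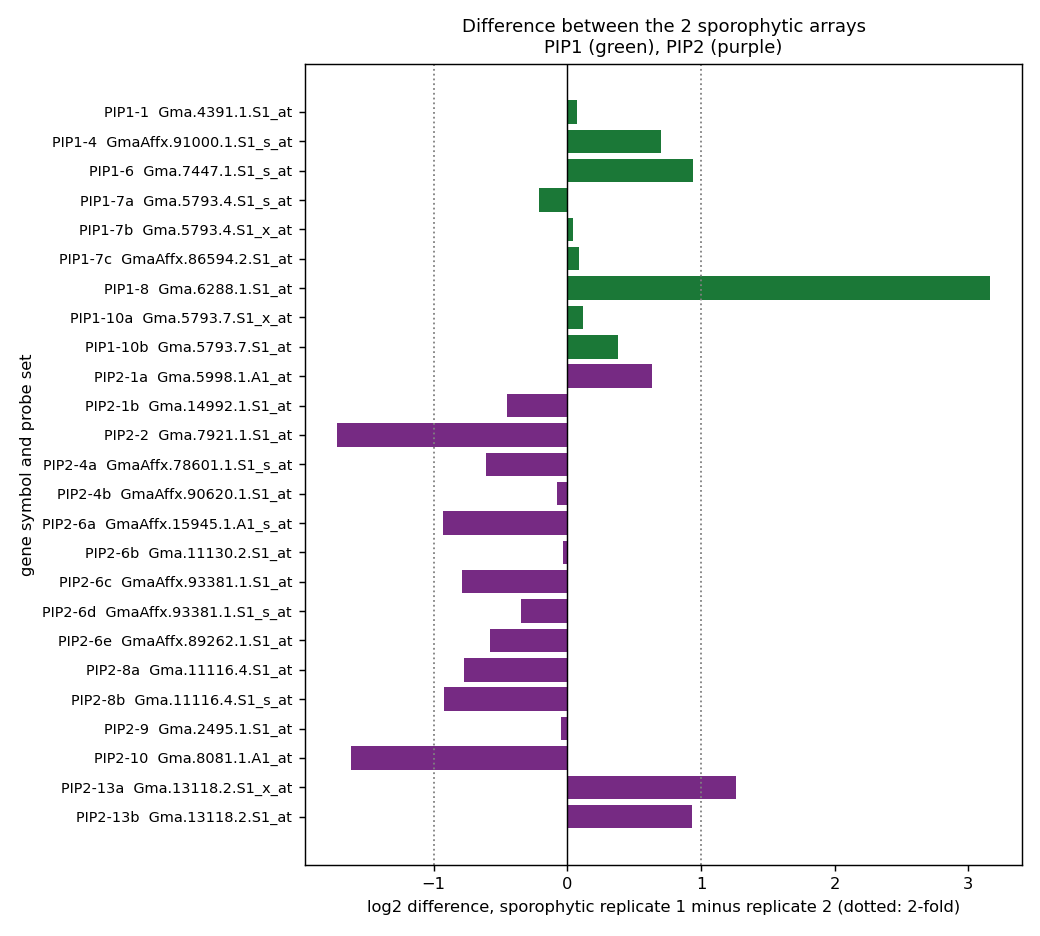
Log2 difference between sporophytic replicate 1 and replicate 2 for each PIP probe set, PIP1 in green and PIP2 in purple, with dotted lines at 2-fold. Bars point to replicate 1 for 8 of 9 PIP1 and 3 of 16 PIP2 probe sets, and PIP1-8 (3.16) is the longest.

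Other aquaporins with a symbol were few. The array annotation gave 7 probe sets, 2 for nodulin 26-like intrinsic proteins (NIPs) and 5 for small basic intrinsic proteins (SIPs), a branch found in the endoplasmic reticulum in Arabidopsis, and none for the vacuolar TIPs. Lower signals in pollen were called for 5 of the 7, against 34.5% of all probe sets, and higher signals for 0, against 18.9%. At an unadjusted p under 0.05 from limma, 1 SIP probe set was higher, against 8298 of all 37593 probe sets. The median difference was -2.91, against -0.22 over all probe sets. With signals under 100 set to 100, 2 of the 7 probe sets were called and lower by at least 2-fold, against 16.3% of all probe sets. After quantile normalization 2 were lower (SIP1-6a and NIP1-8) and 1 was higher (SIP1-4, 0.97), and with equal medians 3 were lower (SIP1-6a, SIP1-6b and NIP1-8) and 2 were higher (SIP1-4 and NIP2-2, 1.32 and 1.47). NIP1-8 had 5.10, 6.11 and 5.09 in pollen and 9.19 and 10.63 in sporophytic tissues, a difference of -4.48 (SE 0.61, adjusted p = 0.00625 from limma), which did not pass with array weights (-4.51, adjusted p = 0.271). SIP1-6 was lower on all 3 of its probe sets, by -4.50, -3.25 and -2.91, and each was above 100 only on sporophytic replicate 1. These 3 calls were lost when any 1 pollen array was left out (adjusted p from 0.0612 to 0.112). SIP1-3 was called with a difference of -0.82 (adjusted p = 0.0457 from limma), which turned positive under both other scalings (0.68 and 0.33).

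A pair of aquaporin probe sets that carry no symbol went the other way. They lie outside the rule for members, and the study named them by their best Arabidopsis match in its list of transcripts higher in pollen, which was drawn from these arrays and gives no independent evidence of direction. The match to PIP2;4 had 10.54, 10.47 and 10.62 in pollen and 2.58 and 2.03 in sporophytic tissues, a difference of 8.24 (SE 0.19, adjusted p = 8.1e-05 from limma). The match to SIP2;1 had 12.61, 12.74 and 12.69 in pollen and 3.65 and 4.77 in sporophytic tissues, a difference of 8.47 (SE 0.37, adjusted p = 3.1e-04 from limma). Their differences thus had the opposite sign to those of the called PIP, NIP and SIP probe sets. The study printed smaller log2 ratios for both, also higher in pollen, and the reason was not tested. Of 24 PIP symbols in the RefSeq gene table, 10 had no probe set under their own symbol (PIP1-2, PIP1-3, PIP1-5, PIP1-9, PIP2-3, PIP2-5, PIP2-7, PIP2-11, PIP2-12 and PIP2-14), and their transcripts were not analysed here.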

How the data were processed

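The authors hybridised 1 Affymetrix Soybean Genome Array per sample, processed its raw signals with Robust Multiarray Averaging in affylmGUI (version not given in the sources used here) and deposited log2 signals, of which the soybean probe sets were used. Pollen and sporophytic arrays were compared by limma 3.58.1 (R 4.3.3; residual degrees of freedom 3, prior degrees of freedom 0.854, prior variance 0.0107), two-sided, with no filter, and figures were drawn with matplotlib 3.10.9. Intervals cover 95% per probe set. Symbols come from the array annotation (1 symbol for 8677 probe sets, several for 370, none for 28546), and all 14 member genes matched the RefSeq gene table of Glycine_max_v4.0, used for names and neighbours only. That table holds no descriptions, so lists of proton pumps, potassium channels and tissue markers planned by description could not be formed, and green-tissue symbols were used instead. All members were named by rule, and values are given by array for those with the largest or divergent differences. Members and lists were chosen with earlier results of these data known. The labels call the samples biological replicates. The fit was checked on simulated data in which a probe set had the same spread in both groups. Over all probe sets the median SD was 0.0804 in pollen and 0.273 in sporophytic tissues. The check therefore does not cover unequal spreads. Raw intensities, present calls and probe sequences were not used here.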

Additional observations from a re-analysis of the deposited data

How the results depend on the processing

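The direction of the PIP result was kept, while the counts over all probe sets moved with several settings. Of the 17 lower calls, 15 remained after quantile normalization of the soybean probe sets, 15 with equal soybean medians, 17 with an intensity trend, 14 with array weights (PIP1-7a, PIP2-9 and PIP2-13a were lost), 16 without any 1 pollen array and 17 without either sporophytic array. In all, 12 remained under each of these fits, each array left out, the replicate block and the filter on dim probe sets wherever they were tested. Counts of lower PIP probe sets ran from 16 to 21 with 1 array left out (16 to 17 without a pollen array, and 21 and 19 without sporophytic replicates 1 and 2), and were 9 of 15 for probe sets with no mark of shared transcripts and 11 of 14 with 1 probe set per gene. Higher PIP calls numbered 0 as reported, 2 after quantile normalization, 6 with equal medians, and 0 to 1 with an array left out. Where a sporophytic array was left out, the spread came from the pollen arrays alone and the lone sporophytic array was assumed to vary like them. These scalings raised the median difference of all probe sets by 0.34 and 1.15.

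All probe sets higher in pollen numbered 7104 as reported, 13917 after quantile normalization, 20047 with equal medians, 3784 with only probe sets at 100 on at least 2 arrays, 2182 with array weights, 4306 at an adjusted p under 0.01 and 3048 with the bounded 2-fold minimum, which was chosen after seeing the data. Those lower numbered 12969 as reported and 8118, 8350 and 6124 with the filter, array weights and the bounded fold. The lower calls were thus 64.6% of all calls as deposited, 41.7% after quantile normalization and 32.9% with equal medians. At the same adjusted p the study counted fewer changed transcripts in total and fewer higher in pollen, and the reason was not tested.

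The PIP1 median was -4.81 after quantile normalization, -4.21 with equal medians, -3.78 without shared probe sets, -5.08 with 1 probe set per gene and -4.68 with the bound at 100. The PIP2 median was -3.65, -3.37, -2.36, -5.27 and -3.18 in the same order, and without 1 array it ranged from -4.64 to -4.02, and the PIP1 median from -5.55 to -5.17. Signs turned only for members below 100 on every array. With equal medians these were 0.94 for PIP2-1b, 1.10 for PIP1-7c, 0.47 for PIP2-4b and 0.75 and 0.97 for PIP2-6c and PIP2-6d. After quantile normalization they were 0.55 for PIP2-4b and 0.45 for PIP2-6c, and PIP2-1b ranged from -0.44 to 0.02 with 1 array left out, the latter without sporophytic replicate 2. SIP1-3, outside the PIPs, turned to 0.68 and 0.33. The cause of these changes was not tested.

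Pollen and sporophytic arrays share replicate numbers, but the labels do not pair them, and the deviations of same-numbered arrays from their group means correlated at 0.0242 (replicate 1) and 0.0161 (replicate 2). With the replicate block, 15 PIP probe sets were lower (PIP2-2 and PIP2-4b were lost) and 0 were higher, with 3511 higher and 8634 lower over all probe sets. For the 7 members below 100 on every array, the differences rest on the bottom end of the signal scale, and why these members were dim was not tested.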
